A study of Homo sapiens with 8 samples.

Results

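The forkhead transcription factors are the genes whose symbol is FOX followed by a letter from A to S and a number. By that rule on the gene name, 41 genes were found among 32415 named genes of the deposited tables, 38 of them listed at day 0 and 40 at day 3.5. RNA was sequenced from H9, an established human embryonic stem cell line, kept in KSR-DMEM. For the study the cells sat on gels under medium conditioned by feeder cells. Each gel was either soft (400 Pa) or stiff (60 kPa), and cells were either undifferentiated (day 0) or induced towards mesoderm with bFGF, Activin, VEGF and BMP4 (day 3.5). The 4 groups had 2 libraries each, and the deposited tables give 1 FPKM (fragments scaled to transcript length and library size) per group, so no spread between libraries stands behind a level. Nothing in the labels tells whether paired libraries came from separate cultures, so the authors' p-values reflect variation among these libraries alone, and that variation may be technical.

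Forkhead factors share a winged-helix DNA-binding domain and sort into subfamilies by letter. Some members, such as FOXA factors in endoderm and FOXC and FOXF factors in mesoderm, mark single lineages of the embryo. Others, such as FOXK, FOXM and FOXO factors, act in most cells, on metabolism, mitosis and the response to insulin and stress. In human embryonic stem cells FOXH1 carries Nodal and Activin signals together with SMAD2, and FOXO1 and FOXD3 are known as factors of the undifferentiated state.

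The labels were read against marker lists, and single markers did not all follow the sums. The 6 pluripotency markers summed to 1296 FPKM on the soft gel and 1382 on the stiff gel at day 0, and to 447 and 719 at day 3.5. POU5F1, NANOG and DPPA4 were lower at day 3.5 on both gels, but ZFP42 was higher on both, and SOX2 on the stiff gel was at 116 and then 164 FPKM. LIN28A on the stiff gel was nearly level, at 248.9 and 238.7 FPKM. The 7 listed streak and mesoderm markers summed to 10.4 and 14.9 FPKM at day 0 and to 116 and 45.8 at day 3.5. Most of the day 0 sums was KDR, at 9.07 and 13.5 FPKM. At day 3.5 all 7 lay on the soft side, HAND1 the furthest (53.8 and 6.07 FPKM) and TBX6 the least (2.13 and 1.94). The endoderm markers with a row summed to 2.27 and 2.22 FPKM at day 0 and to 27.8 and 35.9 at day 3.5. Most of this was CER1, at 20.8 and 30.2 FPKM, with CXCR4 at 3.90 and 4.36, while SOX17, the defining endoderm factor, was at 0.234 and 0.380. In bulk RNA, fewer cells of a type and less RNA per cell cannot be told apart.

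Of the 41 forkhead genes, 18 reached 1 FPKM in a group and 23 did not. Of those 18, 13 were at 1 FPKM or more in every group, and 6 were at 5 FPKM or more in every group. The highest of the 23 low genes was FOXP4, at most at 0.955 FPKM, followed by FOXC2 at most at 0.742 and FOXF2 at most at 0.704. The low genes include the endoderm pioneer factors FOXA1 and FOXA2, at most at 0.183 and 0.0814 FPKM. FOXA3, the third FOXA factor and best known from liver, was at 9.19 FPKM on the soft gel and 9.27 on the stiff gel before induction, against 7.46 and 7.97 after it. Within the FOXA trio, only FOXA3 was above 1 FPKM in these 4 groups.

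**Figure D1:**
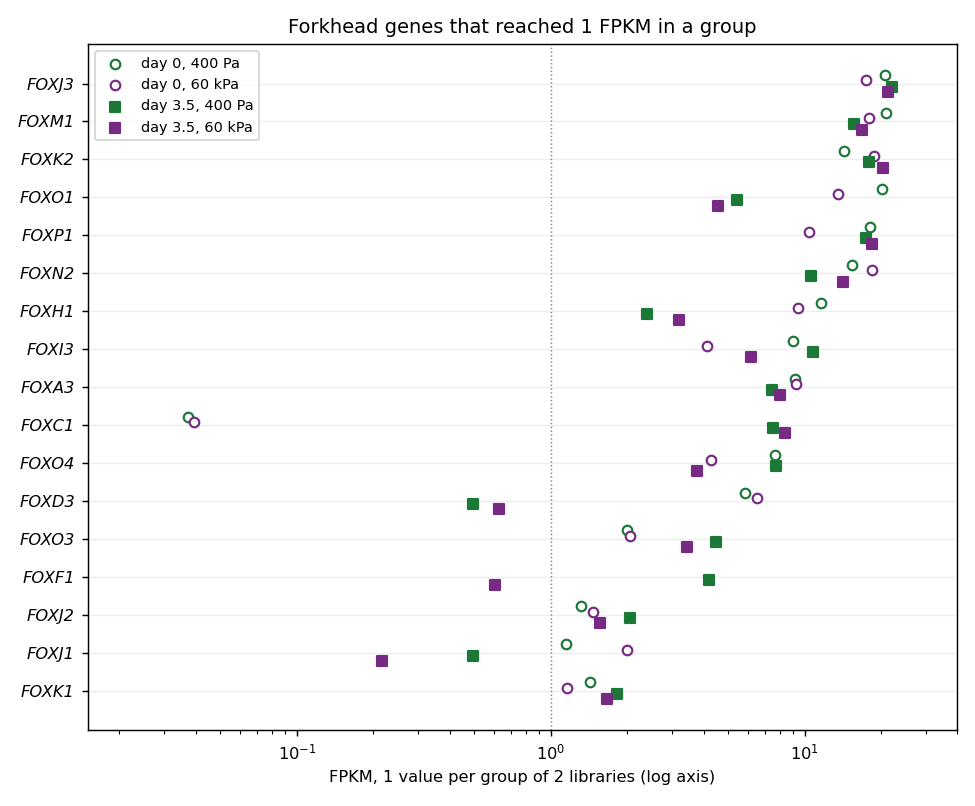
FPKM (log axis) of the forkhead genes described here that reached 1 FPKM, with 1 point per group: circles for day 0, squares for day 3.5, green for 400 Pa and purple for 60 kPa. FOXC1, FOXD3 and FOXH1 stand far apart between the days, and FOXF1 has no day 0 row.

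Levels before and after induction are given side by side and untested, since each day's table was normalised on its own. Over 13150 genes at 1 FPKM or more in all groups, the median change from day 0 to day 3.5 on the log2(FPKM + 1) scale was -0.02 on 400 Pa and -0.03 on 60 kPa. FOXC1, a factor of paraxial and cardiac mesoderm, was at 0.0372 FPKM on the soft gel and 0.0393 on the stiff gel at day 0. At day 3.5 FOXC1 was at 7.48 and 8.39 FPKM, which placed it at rank 8 and rank 6 of the 40 listed members. Both gels reached nearly the same FOXC1 level. FOXD3, a repressor that acts in pluripotent cells and in the neural crest, went the other way, from 5.84 and 6.49 FPKM at day 0 to 0.495 and 0.627 at day 3.5. That was 11.8-fold lower on 400 Pa and 10.4-fold lower on 60 kPa.

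The promoters of 4 members are printed here. They are FOXC1 and FOXD3, whose levels went in opposite directions between the days, FOXF2, the neighbour of FOXC1 described below, and FOXO4. Of the 29 members with a promoter to search, FOXO4 was the 1 with a forkhead motif, about the share found in all promoters. The sequences are from RefSeq on GRCh38.p14, 5′ to 3′ on the gene's strand, and run from 250 bases before the start to 50 after it. Capitals mark matches, on either strand, to the forkhead motif (GTAAACA) or the CCAAT box. They are FOXC1 at chr6:1609665-1609964, FOXF2 at chr6:1389326-1389625, FOXD3 at chr1:63322317-63322616 and FOXO4 at chrX:71095601-71095900, each on the plus strand.
FOXC1: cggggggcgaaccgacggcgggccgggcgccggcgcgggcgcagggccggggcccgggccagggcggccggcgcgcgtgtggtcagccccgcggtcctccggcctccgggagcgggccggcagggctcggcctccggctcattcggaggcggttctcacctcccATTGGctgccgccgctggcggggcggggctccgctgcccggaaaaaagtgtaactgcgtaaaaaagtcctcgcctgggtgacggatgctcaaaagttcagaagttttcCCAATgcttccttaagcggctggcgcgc
FOXF2: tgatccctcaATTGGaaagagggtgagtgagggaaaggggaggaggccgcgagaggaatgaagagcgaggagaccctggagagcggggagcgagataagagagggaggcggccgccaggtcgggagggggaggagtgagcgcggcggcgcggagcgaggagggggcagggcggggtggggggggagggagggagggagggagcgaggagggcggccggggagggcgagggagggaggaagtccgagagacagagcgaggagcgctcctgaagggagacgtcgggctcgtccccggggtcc
FOXD3: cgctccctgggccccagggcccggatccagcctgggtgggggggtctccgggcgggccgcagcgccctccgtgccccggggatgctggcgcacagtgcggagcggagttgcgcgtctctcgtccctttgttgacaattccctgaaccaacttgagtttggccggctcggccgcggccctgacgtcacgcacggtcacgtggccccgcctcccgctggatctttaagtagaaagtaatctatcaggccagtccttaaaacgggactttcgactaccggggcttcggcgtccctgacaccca
FOXO4: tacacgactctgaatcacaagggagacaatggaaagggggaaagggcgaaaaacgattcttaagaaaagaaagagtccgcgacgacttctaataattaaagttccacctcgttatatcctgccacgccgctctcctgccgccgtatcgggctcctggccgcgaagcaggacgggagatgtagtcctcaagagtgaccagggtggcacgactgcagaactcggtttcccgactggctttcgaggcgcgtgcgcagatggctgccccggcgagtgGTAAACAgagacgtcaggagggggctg
The RefSeq table held a promoter for 29 of the 41 members, and the first listed start of each gene was read. FOXF1, FOXH1, FOXM1 and FOXN2 were among the 12 members without one, so their promoters were not searched. GTAAACA was found in 1 of the 29, FOXO4, with its first base 24 bases after the start, against 3.41% of 27305 promoters of the same length. CCAAT was found in 6 of the 29, against 35.7% of all, with 2 matches in FOXC1 and 1 in FOXF2. TATAAA, the TATA box, was found in FOXA3 and FOXP3, against 12.0% of all promoters. The TCF motif CTTTGAT, the SMAD palindrome GTCTAGAC and the FOXH1 motif AATCCACA were found in none of the 29 windows, and in 2.64%, 0.201% and 0.798% of all promoters. The median GC content was 69.3% in the 29 windows and 58.3% in all, with medians of 29 and 14 CpG. A match describes letters in this window and no binding.

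FOXH1, the Nodal partner, was at 11.6 FPKM on the soft gel and 9.38 on the stiff gel before induction, against 2.40 and 3.20 after it. It was 4.84-fold lower at day 3.5 on 400 Pa and 2.94-fold lower on 60 kPa. FOXO1 measured 20.2 and 13.5 FPKM before induction, against 5.41 and 4.55 after it. FOXO1 thus stood 3.72-fold lower on 400 Pa and 2.97-fold lower on 60 kPa after induction. FOXO3, a close relative under the same control by AKT, was at 1.99 and 2.06 FPKM before induction, against 4.48 and 3.45 after it. The order of FOXO1 over FOXO3 was thus 10.1-fold at day 0 and 1.21-fold at day 3.5 on the soft gel. On the stiff gel it was 6.55-fold at day 0 and 1.32-fold at day 3.5. FOXJ1, the master factor of motile cilia, was at 1.15 and 1.99 FPKM before induction, against 0.493 and 0.217 after it.

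The broadly expressed members were at 1 FPKM or more on both days. FOXJ3 was at 20.7 FPKM on the soft gel and 17.4 on the stiff gel before induction, against 22.04 and 21.3 after it. FOXM1, which drives the genes of mitotic entry, was at 20.9 and 17.96 FPKM before induction, against 15.7 and 16.8 after it. FOXK2, a repressor that binds many FOXO sites, was at 14.4 and 18.8 FPKM and then at 17.95 and 20.4. Both relatives of the FOXK pair were measured, and the paralog FOXK1 was far lower, at 1.42 and 1.16 FPKM before induction, against 1.83 and 1.67 after it. FOXN2 measured 15.4 and 18.4 FPKM before induction, against 10.6 and 14.2 after it. FOXP1, a repressor with a splice form specific to pluripotent cells, was at 18.1 and 10.4 FPKM before induction, against 17.4 and 18.5 after it. FOXJ2 was at 1.32 and 1.47 FPKM and then at 2.05 and 1.57. FOXJ3, FOXK2 and FOXP1 held ranks 1, 2 and 3 of the listed members on both gels at day 3.5. The locus that merges FOXN3 with EFCAB11, described below, is not ranked.

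The soft and stiff gels were then compared in the induced cells. FOXF1, a factor of lateral plate and extraembryonic mesoderm, was higher on the soft gel. Of the 16 forkhead genes that the authors tested and that reached 1 FPKM, 2 were called at a q-value below 0.05 in the authors' deposited table, and FOXF1 was the 1 called on the soft side. By the same rule 1.4% of 16130 tested genes were called in either direction, 1.17% on the soft side and 0.229% on the stiff side.

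FOXF1 was at 4.19 FPKM on the soft gel and 0.605 on the stiff gel at day 3.5, a 6.91-fold difference. Its change, log2((FPKM + 1) on 400 Pa / (FPKM + 1) on 60 kPa), was 1.69. The authors' deposited table gives a log2 ratio of 60 kPa over 400 Pa of -2.79 (implied SE 0.85), with p = 0.0002 and q = 0.0231. The SE is the deposited ratio divided by the deposited test statistic, is approximate, and holds for the ratio without a pseudocount, as do all implied SEs here. For every tested forkhead gene at 1 FPKM or more, the deposited p-value is smaller than a normal test with this SE would give. The same holds for MEIS1 and OTX2, so the implied SEs may be too large. FOXF1 has no row in the day 0 table. Its call is lost at a q-value threshold of 0.01.

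**Figure D2:**
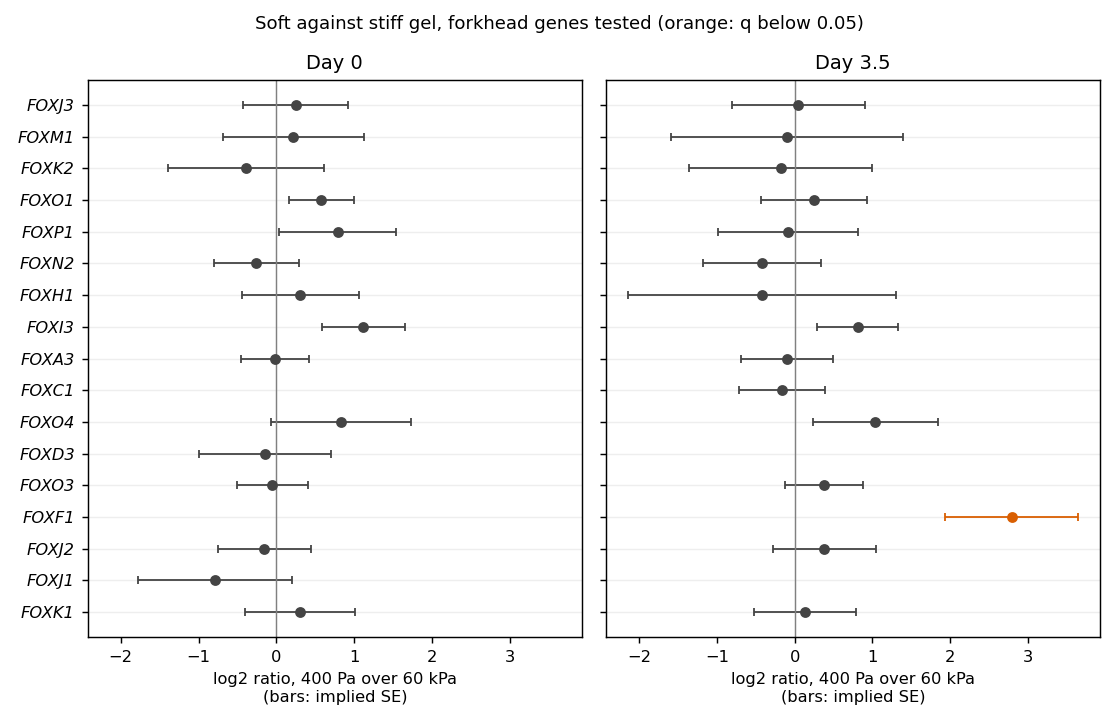
Deposited log2 ratio turned to 400 Pa over 60 kPa, with bars for the implied SE, for the forkhead genes described here that were tested and at 1 FPKM or more on each day. FOXF1, on the soft side at day 3.5, is the point in orange, with q below 0.05.

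FOXO4 and FOXI3 had no call at day 3.5. FOXO4, a FOXO factor, was at 7.70 FPKM on the soft gel and 3.75 on the stiff gel (change 0.87, implied SE 0.81, p = 0.0323 and q = 0.716 in the authors' deposited table). FOXI3, a factor of the otic placode and ectodermal organs, was at 10.8 and 6.14 FPKM (change 0.72, implied SE 0.52, p = 0.0252 and q = 0.621 in the authors' deposited table). Together with the calls, 4 of 16 members had an unadjusted p below 0.05, against 6.03% of all tested genes. Among members of at least 5 FPKM, the next largest values were those of FOXN2 (change -0.39, implied SE 0.76), FOXO1 (0.21, SE 0.68), FOXK2 (-0.17, SE 1.18) and FOXC1 (-0.15, SE 0.55). Each of these was smaller than its implied SE, which may be too large. Over the 16 members, 8 lay above 0 and 8 below. Their median change was -0.02, and that of all tested genes 0.04.

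In the undifferentiated cells none of the 15 tested members at 1 FPKM or more was called in the authors' deposited table, where 0.15% of 15297 genes were (0.0719% higher on 400 Pa and 0.0784% on 60 kPa). Of the 15, 2 had an unadjusted p below 0.05 there, against 1.93% of all tested genes. FOXI3 was at 8.98 FPKM on the soft gel and 4.13 on the stiff gel (change 0.96, implied SE 0.54, p = 0.00295 and q = 0.912 in the authors' deposited table). FOXO1, at 20.2 and 13.5 FPKM, had a change of 0.54 (implied SE 0.42, p = 0.0300 and q = 0.9998 in the authors' deposited table). These values were 2.18-fold and 1.49-fold of those on the stiff gel, and neither passed the adjustment. FOXP1 (change 0.74, implied SE 0.75), FOXO4 (0.71, SE 0.90) and FOXH1 (0.28, SE 0.75) also lay on the soft side, and FOXK2 (-0.36, with an SE above 1) on the stiff side. FOXO4 was at 7.65 and 4.30 FPKM. Of these 15 members 8 lay above 0, with a median of 0.17 against 0.03 for all tested genes. The median turned to -0.011 with no minimum FPKM.

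The FOXI3, FOXO4, FOXO1, FOXJ3 and FOXK1 values thus lay on the soft side on both days without a call. FOXP1, FOXH1 and FOXM1 lay there at day 0 alone, and FOXA3, FOXK2 and FOXN2 lay on the stiff side on both days. The difference of the stiffness change between days was tested over 14315 genes from the deposited ratios and their implied errors (normal approximation, Benjamini-Hochberg adjustment). Of 13 members compared, 0 passed and 0 had an unadjusted p below 0.05, and 11 of all genes passed. With errors implied by the deposited p-values in place of the statistics, 51 of all genes and 0 members passed. Since the errors implied by the statistics may be too large, the count of 0 does not show that no member differed. For FOXP1 the difference was -0.88 (SE 1.17) and for FOXI3 -0.31 (SE 0.75). FOXF1 could not be compared, because it was not tested at day 0.

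Several members lie next to each other, and of these neighbours only FOXF1 was called at day 3.5. On chromosome 16 (hg19, from the authors' tables), FOXF1 at 86544133 to 86548076 lies near FOXC2 at 86598751 to 86603330 and FOXL1 at 86609974 to 86615303. FOXC2, a factor of lymphatic and mesenchymal tissue, was at 0.259 FPKM on the soft gel and 0.742 on the stiff gel at day 3.5, with q = 0.958 in the authors' deposited table. FOXL1, a factor of gut mesenchyme, was at 0.210 and 0.487 FPKM and was not tested. The values of both lay on the stiff side, but below 1 FPKM and without a call, so no opposite change to FOXF1 is shown. Between FOXF1 and FOXC2, MTHFSD, which is no forkhead gene, was at 10.7 and 12.2 FPKM.

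On the other side of FOXF1, the long noncoding RNA gene FENDRR ends 1428 bases before the FOXF1 locus. FENDRR is known from lateral mesoderm, where it is read away from FOXF1. It was at 2.71 FPKM on the soft gel and 0.0923 on the stiff gel at day 3.5, with q = 0.0231 in the authors' deposited table and thus called higher on the soft gel like FOXF1. Its deposited ratio has an implied SE of 4.82 for a value of -4.88, so its call and its error in the authors' deposited table do not go together. FENDRR had no row at day 0. Of the 14 noncoding neighbours looked up, 5 had a row at day 3.5 and 2 reached the minimum, of which FENDRR was called.

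**Figure D3:**
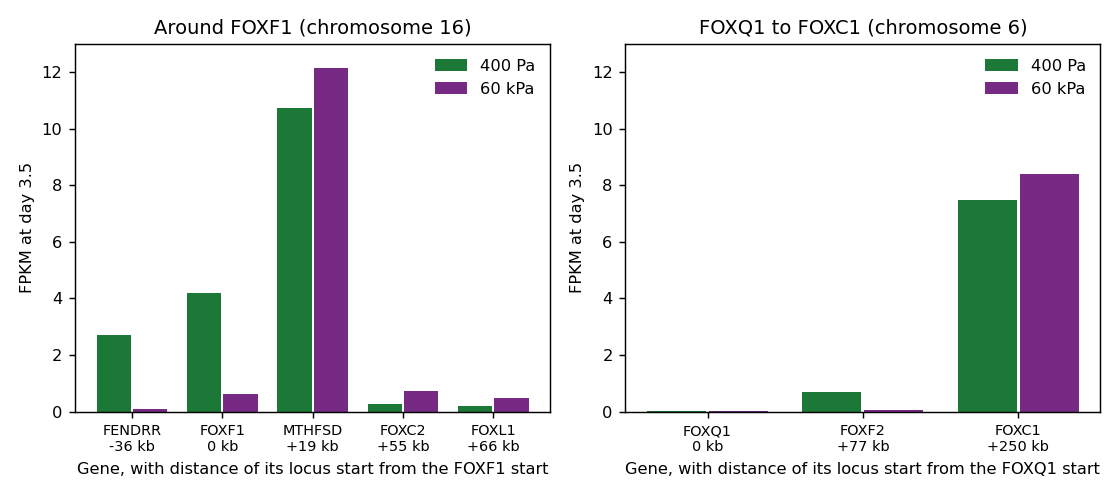
FPKM at day 3.5 (bars from 0; green 400 Pa, purple 60 kPa) of genes around FOXF1 and from FOXQ1 to FOXC1, in chromosome order with the distance of each locus start in kb. FENDRR, FOXF1 and FOXF2 are taller on the soft gel, while FOXC2, FOXL1 and FOXC1 are taller on the stiff gel.

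A second group lies on chromosome 6, with FOXQ1 at 1312675 to 1314992, FOXF2 at 1390069 to 1395832 and FOXC1. The authors' locus for FOXC1, 1562592 to 2245926, also spans GMDS. FOXF2, the paralog of FOXF1, was at 0.704 FPKM on the soft gel and 0.0527 on the stiff gel at day 3.5, with q = 0.999979 in the authors' deposited table. FOXQ1 stayed at most at 0.0285 FPKM. The FOXF2 value lay on the soft side, but below 1 FPKM and without a call, and FOXC1 next to it was nearly equal (7.48 and 8.39 FPKM). FOXE3 and FOXD2, neighbours on chromosome 1, were at most at 0.0210 and 0.0466 FPKM.

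The genes around the members in their pathways were read from lists of known partners. Of 15 mesoderm partners of FOXF and FOXC factors, 10 reached the minimum at day 3.5. Calls in the authors' deposited table numbered 9 on the soft side and 0 on the stiff side, and the median change was 2.13. Of all tested genes 1.17% were called on the soft side and 0.229% on the stiff side, with a median of 0.04. The lists were chosen with earlier results of these data known, so these counts are a description only. TWIST1 (4.64 and 0.362 FPKM) and GATA4 (2.89 and 0.884) met the minimum on the soft gel alone. The listed partners below it were VCAM1 (0.782 and 0.655 FPKM), TCF21 (0.354 and 0.0817), MEOX1 (0.224 and 0.238) and TBX1 (0.106 and 0.0421). HAND1, a factor of lateral mesoderm, was at 53.8 FPKM on the soft gel and 6.07 on the stiff gel (change 2.95, implied SE 0.59). SNAI2, a mesenchymal transition factor, measured 28.2 and 2.85 FPKM, a change of 2.92 (SE 0.63). The homeobox factor MEIS1 measured 62.4 and 7.75 FPKM, a change of 2.86 (SE 1.19). For ISL1, a factor of cardiac progenitors, 47.7 and 9.44 FPKM gave a change of 2.22 (SE 0.53). BMP4, an added factor of the induction and a ligand upstream of FOXF1 in the embryo, was at 50.5 and 12.0 FPKM (1.99) and was also called there. FOXF1 thus lay on the same side as these partners, and FOXC1 (change -0.15) did not.

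Of 12 neural and neural crest partners, 10 reached the minimum at day 3.5, of which the authors' deposited table calls 3 on the stiff side and 0 on the soft side, with a median of -0.55. The shares over all tested genes were 0.229% on the stiff side and 1.17% on the soft side. HESX1, known from forebrain and pituitary, was at 5.11 FPKM on the soft gel and 45.3 on the stiff gel (change -2.92, implied SE 0.70). LHX5 was at 4.12 and 20.6 (-2.07, SE 0.68) and OTX2 at 69.3 and 152 (-1.12, SE 0.48). At day 0, where 0.0719% of all tested genes were called on the soft side, the 4 neural partners at the minimum all lay there. Of these, TFAP2A, also on the list of amnion and trophoblast markers, was called in the authors' deposited table (2.41 and 0.465 FPKM). As for FENDRR, its call and its error there do not go together, with an implied SE of 1.98 for a log2 ratio of -2.37.

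**Figure D4:**
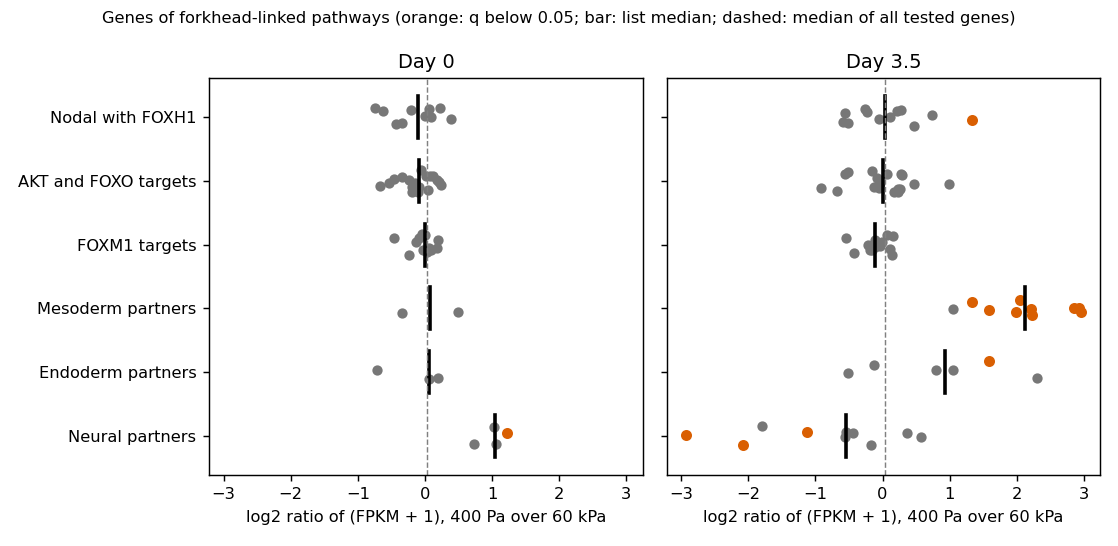
Change of each gene at the minimum in 6 lists of forkhead partners at day 0 and day 3.5, on the log2(FPKM + 1) scale, with 400 Pa over 60 kPa to the right; black bars are list medians and the dashed line is the median of all tested genes. The mesoderm partners lie to the right at day 3.5 (median 2.13) and the neural partners mostly to the left (median -0.55).

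Some markers of other cell types differed between the gels at day 3.5 beside FOXF1, and their part in its result was not tested. The 7 amnion and trophoblast markers summed to 149 FPKM on the soft gel and 30.5 on the stiff gel. VTCN1, CDX2 and KRT7 were called on the soft side in the authors' deposited table. CGA lay on the stiff side without a call (0.242 and 1.03 FPKM), and CGB5 was listed at 0 on 400 Pa. The 6 fibroblast-type markers summed to 254 and 67.1 FPKM, with LUM, DCN and COL3A1 called on the soft side there. LUM alone was at 136 and 4.69 FPKM. COL1A2 (18.2 and 24.2 FPKM) and THY1 (25.5 and 26.8) lay on the stiff side without a call. The 6 neuroectoderm markers summed to 96.8 and 239 FPKM, while SOX1 was at 0.0101 and 0.0267. Of the 7 listed mesoderm markers, 1 was called (HAND1) in the authors' deposited table.

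The lists around FOXH1, FOXO and FOXM1 are read against the 1.4% of all tested genes called at day 3.5, and the 6.03% with an unadjusted p below 0.05. In lists of this size, a count of 0 or 1 sets none of them apart. Of 16 Nodal genes, 12 reached the minimum at day 3.5, with 1 call on the soft side in the authors' deposited table. The median was 0.03. NODAL itself was at 6.46 and 5.94 FPKM and SMAD2 at 88.3 and 91.2, beside FOXH1 at 2.40 and 3.20. Of 20 genes of insulin and AKT signalling and FOXO targets, 18 reached the minimum and 0 were called in the authors' deposited table on either day, with a median of 0.01 at day 3.5. At an unadjusted p below 0.05 there were 0 of these at day 0 and 2 at day 3.5. Their highest levels at day 3.5 were those of SESN3 (80.5 and 65.6 FPKM) and TXNIP (60.8 and 87.4). Of 15 mitotic targets of FOXM1, 13 reached the minimum and 0 were called there on either day (median -0.11 at day 3.5), and 0 had an unadjusted p below 0.05 on either day. CCNB1 was at 171 and 153 FPKM and TOP2A at 141 and 152, and FOXM1 itself was nearly equal between the gels. Of 11 endoderm partners of FOXA factors, 6 reached the minimum and GATA6, also on the mesoderm list, had a call on the soft side in the authors' deposited table (6.76 and 1.58 FPKM).

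The members also differ in gene structure, which the gene name does not use. In the GENCODE release 29 annotation, 40 members have a coding transcript and 14 of these have only single-exon coding transcripts (35.0%), against 3.65% of 14841 named genes. Of the 14 single-exon genes, 3 reached 1 FPKM, among them FOXC1 and FOXD3, and 0 did so in all 4 groups. Of the 26 genes with 2 or more exons, 15 reached 1 FPKM and 13 did so in all 4 groups. The median of the highest FPKM was 0.220 for the single-exon genes and 2.02 for the others. FOXF1 has 2 exons. FOXO1B, a copy of FOXO1 without a coding transcript there, was at most at 0.0758 FPKM.

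**Figure D5:**
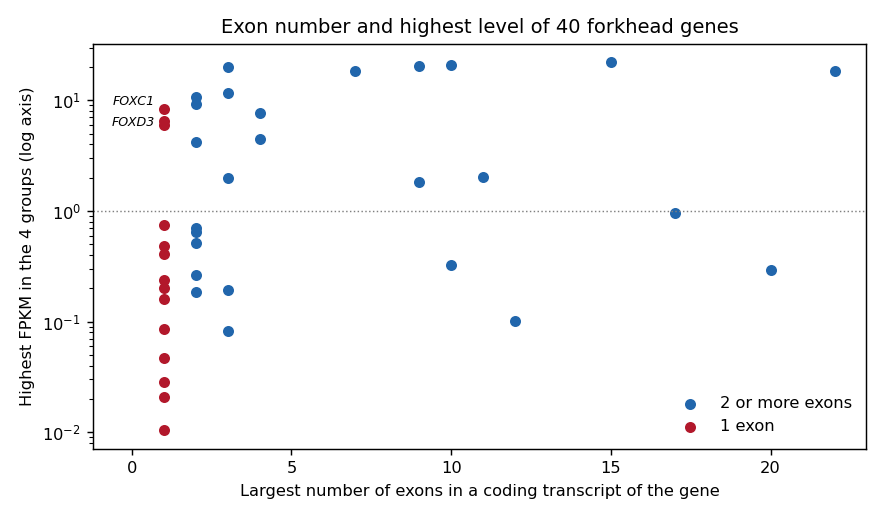
Highest FPKM in the 4 groups (log axis) against the largest number of exons in a coding transcript, for the 40 forkhead genes with one. Of the single-exon genes (red) 3 lie above 1 FPKM, with FOXC1 and FOXD3 labelled, and genes with more exons (blue) spread over both sides of the dotted line at 1 FPKM.

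The remaining members stayed below 1 FPKM. At day 3.5 FOXI1 was at 0.646 FPKM on the soft gel and 0.486 on the stiff gel, and FOXI2 at 0.517 and 0.174. FOXS1, a pericyte factor, was at 0.288 and 0.408 FPKM, and FOXD1, a factor of kidney stroma, at 0.240 and 0.121. FOXB1, a factor of the diencephalon, was at 0.0477 and 0.264 FPKM. Of the FOXP and FOXN factors not yet described, FOXP2, known from speech circuits of the brain, was at most at 0.294 FPKM and FOXN4, a factor of the retina and spinal cord, at most at 0.324. FOXP3, the factor of regulatory T cells, was at most at 0.101 FPKM and FOXL2, a factor of the ovary, at most at 0.201. FOXO6 was at most at 0.193 FPKM, FOXB2 at most at 0.159 and FOXE1, a thyroid factor, at most at 0.0104. FOXD4 has near-identical copies in the genome, so its level, at most 0.0859 FPKM, is uncertain. These genes of other tissues were thus near the floor of the tables in every group. Of the 40 members listed at day 3.5, 24 were below 1 FPKM on both gels and 18 of these below 0.5, and 2 were listed at 0 in a group. At day 0, 23 of 38 were below 1 FPKM and 9 were listed at 0 in a group. Levels this low rest on an unknown number of reads, since the files give no depth, and the differences among them were mostly not tested by the authors.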

How the data were processed

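H9 cells gave 8 libraries in 4 groups. The 2 deposited tables hold 1 FPKM per locus and group; per the submitters' processing notes the tool was Cufflinks and the build hg19. The aligner, annotation and versions were not given in the sources used here. Per the file headers, each locus has the authors' log2 ratio (stiff over soft), p-value and q-value. The deposited test statistic is a score. Depth is unknown, no value per library was analysed here, and the replicates could not be compared.

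Each named gene was taken once, by its row with the highest mean. Unnamed loci (3516 at day 0, 3583 at day 3.5) were left out, and loci of several genes (1325 and 1358) cannot be split. Genes tested by the authors with at least 1 FPKM in a group were counted as called at q below 0.05. Changes use a pseudocount of 1, which understates those of low genes. No strand setting is given, so reads of overlapping or antisense genes may be shared. Forkhead genes at 1 FPKM or more, called list members (up to 4) or else the highest members, and neighbours within 500 kb are named; MTHFSD, BMP4, NODAL, SMAD2, single low markers and further low members were named after their values were seen. Results of some genes are not reported here, although the counts include them. The members, lists and tests were chosen with earlier results of these data known. The test between days was tried on simulated data with normal errors of the implied size and differences larger than those of the members. That simulation cannot show whether the implied errors hold, or whether differences as small as those of the members would be found. Loci are hg19, 1-based; GENCODE release 29 gave exon numbers and RefSeq (GRCh38.p14) promoters. Alternatives changed pseudocount, minimum, threshold, centring and adjustment. Computing used matplotlib 3.10.9, scipy 1.17.1, numpy 2.4.6, pandas 2.3.3 and Python 3.11.15.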

Additional observations from a re-analysis of the deposited data

How the results depend on the processing

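No paired analysis was possible because the deposited tables hold 1 value per group, and leaving out a replicate was not run for the same reason. Of the forkhead genes at day 3.5, 0 were called at q below 0.01 in the authors' deposited table, 4 at an unadjusted p below 0.05 (among them FOXF1, FOXI3 and FOXO4) and 1 at a minimum of 5 FPKM, which FOXF1 does not reach. At day 0 the count of 0 calls became 2 at an unadjusted p below 0.05. FOXF1 was also called at q below 0.1, with a minimum fold of 2, with no minimum, and when adjusted again over the genes at the minimum (q = 0.0197). The FOXF1 change ranged from 1.65 to 2.60 over pseudocounts, centring and summed rows. The median forkhead change at day 0 became -0.011 with no minimum. With 5 FPKM in place of 1 as the level, 11 and 9 members reached it at day 0 on 400 Pa and 60 kPa, and 10 and 9 at day 3.5. Errors implied by the p-values gave 0 members that differed between days as well, while the count over all genes went from 11 to 51. Low FPKM limit most members, and the number of reads behind them is unknown.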

Other observations

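FOXN3, a checkpoint factor of the family, is merged with EFCAB11 into 1 locus in the authors' tables and was therefore no member by the naming rule. The merged EFCAB11 and FOXN3 locus measured 61.9 FPKM (soft gel) and 63.3 (stiff gel) before induction, against 47.8 and 42.9 after it. The values cannot be divided between both genes. The antisense gene FOXP1-AS1 measured 1.62 and 0.784 FPKM before induction, where FOXP1 had 18.1 and 10.4. After induction it measured 1.45 and 1.43 FPKM, where FOXP1 had 17.4 and 18.5. Reads of both strands cannot be told apart here.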
